A study of Oryctolagus cuniculus with 6 samples.

Results

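The proteasome genes were followed in smooth muscle cells of the rabbit basilar artery, the vessel at the base of the brain whose flow rises when the carotid arteries are closed. Proteasome probes were all non-control probes of the array whose gene name began with PSMA, PSMB, PSMC, PSMD, PSME, PSMF or PSMG, or whose description held the word proteasome. The rule found 106 of 43603 probes, for 42 genes, and used no measured value. Of these, 102 probes for 39 genes were bright enough to be tested, among 27410 tested probes and 7559 tested genes with a symbol. The tested genes were 13 of the 20S core, 3 of the immunoproteasome, 12 of the 19S regulatory particle and 11 activators, inhibitors and assembly factors. The other 3 genes were not well above background on any array: PSMA8, the testis form of a core subunit, PSMB11, the thymus form of a catalytic subunit, and an unnamed gene described as similar to PSMG3.

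The ligated group was female New Zealand White rabbits in which both common carotid arteries were tied off. The sham group was the same strain and sex with both arteries exposed and not tied. The labels give 3 rabbits per group, killed with sodium pentobarbital on day 5, and 1 array of total RNA for each of 3 numbered replicates. The labels name no transgene or test drug and no age, and cells were released from the artery by 45 min of elastase and collagenase and by pipetting, with no sort named. Whether an array is a single rabbit or a pool is not stated, so p-values measure the spread between these arrays.

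The proteasome is the protease that breaks down proteins tagged with ubiquitin. Its core is a barrel of alpha rings, which form the gate, and beta rings, of which PSMB5, PSMB6 and PSMB7 cut the chain; the 19S particle binds ubiquitin, unfolds the protein and feeds it in. Under interferon and in immune cells, newly built cores take up PSMB8, PSMB9 and PSMB10 in place of these 3, and the activator made of PSME1 and PSME2 docks on the ends, which shifts the peptides offered to T cells. In cells that lose proteasome activity, the factor NFE2L1 (NRF1) raises the subunit genes together.

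Values are normalised log2 signals, the log2 of the scanner's processed signal minus the 75th percentile of that array, and a change is ligated minus sham with the standard error of the fit. Well above background were 58.7% to 63.7% of probes on each array. The summed linear signal of smooth muscle markers, relative to that percentile, was 1308 to 2132 on sham and 485 to 1084 on ligated arrays. Not each marker was bright, and LMOD1 read -1.26 on ligated 3. The 8 tested markers had changes of -2.07 (LMOD1) to -0.85 (CALD1), with a median of -1.14. Of these 8, limma called 2 as lower after ligation (SMTN and DES). Of the 7559 tested named genes, 203 were called lower and 8.89% were called in either direction. All 3 sham arrays lay on 1 slide and all 3 ligated arrays on another, and ligation and slide cannot be told apart. The most similar arrays were sham 2 and sham 3 (SD of their difference over probes 0.38, against 0.61 to 1.51 for the other pairs), and sham 1 stood apart from them. For some of the results that rest on sham 1, the value without it is also given. Over all tested probes sham 1 was closer to ligated 2 (0.92) and ligated 1 (1.05) than to sham 2 or sham 3 (1.28 each). Ligated 3 was about as far from ligated 2 (0.94) and ligated 1 (1.02) as from sham 2 (0.96) and sham 3 (1.01). The labels do not say whether sham 2 and sham 3 are separate rabbits, and in the fits without sham 1 they are the whole sham group, so the p-values of those fits may measure a smaller spread than that between rabbits.

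Each catalytic immunoproteasome subunit was read by 1 probe, and so were PSMB5, PSMB7 and PSME1; PSMB6 and PSME2 had 2 and 5 probes, of which the brightest is shown. They are shown because each inducible subunit and its counterpart are related genes that only the probe sequence tells apart. Cross-hybridisation was not tested. Each 60-base probe is printed 5′ to 3′ from the array files, with the longest run it shares with the probe of its counterpart in capitals.

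PSMB8: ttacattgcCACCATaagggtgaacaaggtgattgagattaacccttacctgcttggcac
PSMB5: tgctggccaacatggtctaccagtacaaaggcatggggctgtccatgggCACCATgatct
PSMB9: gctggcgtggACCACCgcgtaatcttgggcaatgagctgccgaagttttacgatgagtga
PSMB6: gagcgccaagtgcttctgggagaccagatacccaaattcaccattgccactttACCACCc
PSMB10: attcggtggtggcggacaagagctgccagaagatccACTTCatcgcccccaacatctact
PSMB7: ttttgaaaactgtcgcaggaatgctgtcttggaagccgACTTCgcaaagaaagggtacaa
PSME1: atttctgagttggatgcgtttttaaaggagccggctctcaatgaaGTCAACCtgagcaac
PSME2: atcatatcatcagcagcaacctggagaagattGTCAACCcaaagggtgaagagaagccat

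The longest shared runs were 6 bases for PSMB8 with PSMB5, 6 for PSMB9 with PSMB6, 5 for PSMB10 with PSMB7 and 7 for PSME1 with PSME2. On the build of the files, oryCun2, the probe of PSMB8 lay at chr12:23359095-23359308 on the minus strand and that of PSMB9 at chr12:23377365-23377424 on the plus strand, 18057 bases apart. The probe of PSMB10 lay at chr5:23501550-23501735 (minus), that of PSMB5 at chr17:43260938-43260997 (minus) and that of PSMB6 at chr19:12327789-12327848 (plus). The probes of PSME1 at chr17:44184037-44184227 (plus) and PSME2 at chr17:44190832-44190891 (minus) were 6605 bases apart. The files give spans of 214, 186 and 191 bases for the probes of PSMB8, PSMB10 and PSME1, longer than the 60 bases of a probe, and no position for that of PSMB7. Exon annotation of this build was not used here. Over all 102 tested proteasome probes the median GC content was 43.3%, the same as over all tested probes. Their median level was higher, at 2.44 against -0.74 in normalised log2 signal.

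No proteasome gene passed the test for a difference between ligated and sham arteries, while 8.89% of tested named genes and 8.35% of tested probes did. In limma, 0 of 39 genes and 0 of 102 probes had an adjusted p under 0.05, and 4 genes had an unadjusted p under 0.05, against 27.8% of named genes. These were PSMB6, PSMD7, PSMD11 and PSMD12, all with negative changes. Other settings of the fit called 0, 1 or 4 of the 39: PSMD7 with median centring, with trended robust variances and without sham 1, and PSMB6, PSMB8, PSMD7 and PSME1 with array weights. The number with an unadjusted p under 0.05 ran from 0 to 9 over these settings. Changes were negative for 30 of 39 genes (24 with array weights or without ligated 1, 26 with quantile normalisation, 34 with median centring), with a median of -0.16 against 0.01 over all named genes. The share with a change under 0.5 in size was 74.4% (29 of 39) for proteasome genes and 59.4% for named genes. Only PSMB8 and PSMB9 reached a change of 1 in size (5.13% of the 39, against 15.2% of named genes).

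The 95% interval of the change excluded a 2-fold change in either direction for 26 of 39 genes (66.7%), against 43.4% of named genes, and the bounds lay a median of 0.59 from the change. The share was 10 of 13 in the core, 7 of 12 in the 19S particle, 9 of 11 among activators, inhibitors and assembly factors, and 0 of 3 in the immunoproteasome. Proteasome probes were brighter than most tested probes. Neither these shares nor those by size of change were matched for signal level. By the brightest probe of each gene, groups did not overlap for 7 proteasome genes that were lower on every ligated array (PSMB6, PSMD7, PSMD8, PSMD11, PSMD12, PSMG1 and PSMG3). Of named genes, 17.7% did the same. They did not overlap for 1 gene that was higher on every ligated array (PSMA5), where 17.8% of named genes did the same. For the lower genes the share of the 39 was near that background.

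**Figure D1:**
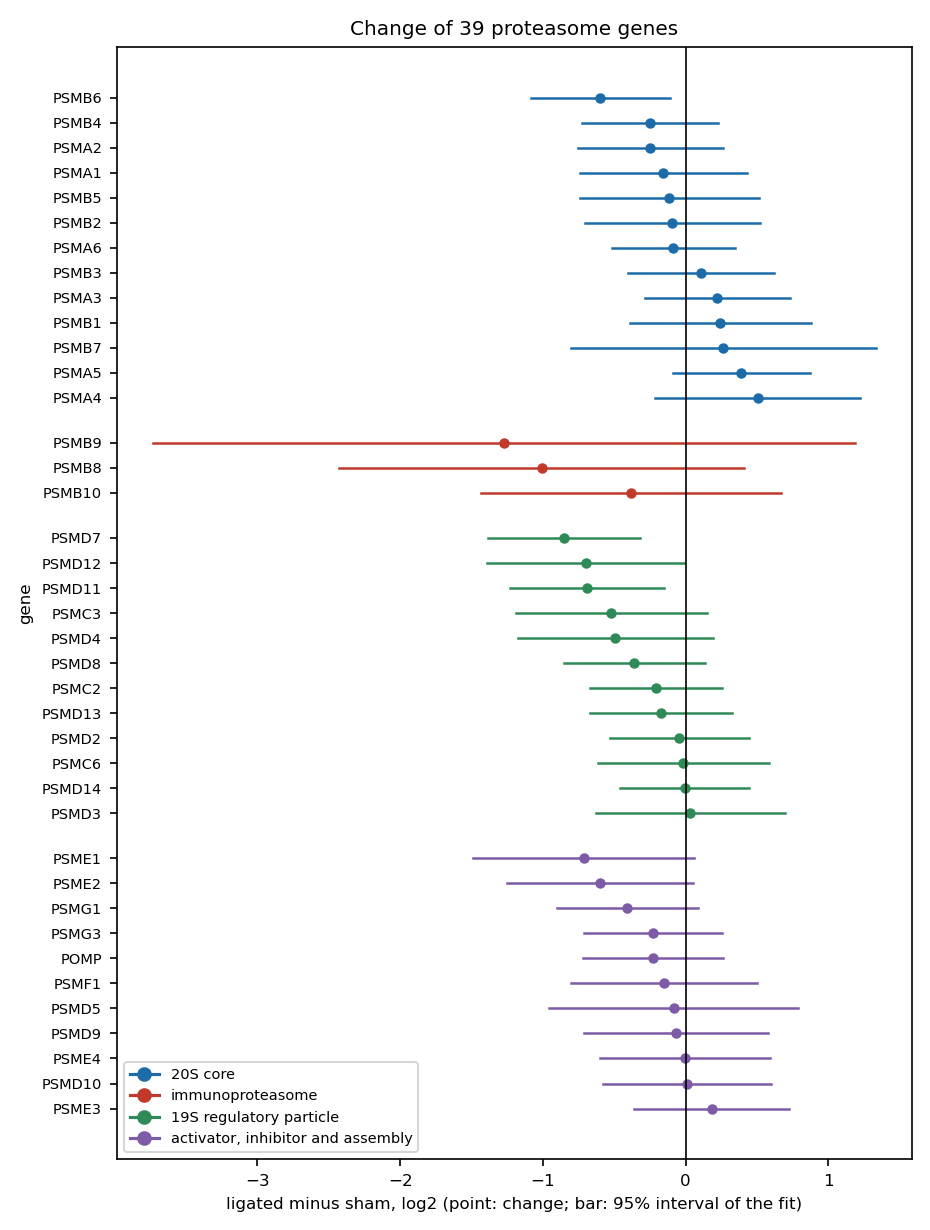
Change of each of the 39 tested proteasome genes, ligated minus sham in log2 (x axis), by role (colour); points are changes and bars the 95% intervals of the limma fit over 3 arrays per group. The immunoproteasome genes have the widest bars, and only the bars of PSMB6, PSMD7, PSMD11 and PSMD12 leave out 0, before adjustment.

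The alpha ring showed no common direction. PSMA5 read 2.42, 2.0 and 1.97 on sham and 2.60, 2.50 and 2.47 on ligated arrays. All ligated values lay above all sham values, by a change of 0.39 ± 0.20 that limma did not call (adjusted p = 0.259, 95% interval -0.09 to 0.87). This was the brightest of its 4 probes. The groups of its other probes overlapped, with changes of 0.13 to 0.28. PSMA4 read -0.03, -0.62 and -0.62 on sham and 0.35, 0.33 and -0.44 on ligated arrays (0.50 ± 0.30, adjusted p = 0.322). Here ligated 3 lay below sham 1, so the groups overlapped. PSMA3 had a change of 0.22 ± 0.21, PSMA6 of -0.09 ± 0.18, PSMA1 of -0.16 ± 0.25 and PSMA2 of -0.25 ± 0.21, with intervals that all included 0.

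Of the catalytic subunits of the constitutive core, PSMB6 had the most negative change of the 13 core genes. Its brighter probe read 5.99, 6.18 and 6.09 on sham and 5.20, 5.57 and 5.69 on ligated arrays, with every ligated value below every sham value. The change was -0.60 ± 0.20, with a 95% interval of -1.08 to -0.11, and was not called in limma (adjusted p = 0.12). PSMB5 read 3.30, 2.70 and 2.65 on sham and 2.65, 3.09 and 2.57 on ligated arrays, and the groups overlapped through ligated 2 (-0.11 ± 0.26). PSMB7 read 1.68, 0.52 and 0.50 on sham and 1.41, 1.64 and 0.45 on ligated arrays. It split each group instead of parting the groups (0.26 ± 0.45, and 0.65 without sham 1), and its interval, -0.80 to 1.33, was the widest in the core. The 4 structural beta subunits had changes of -0.25 (PSMB4), -0.09 (PSMB2), 0.11 (PSMB3) and 0.24 (PSMB1), none called. The median change of the 13 core genes was -0.09, but the sign of this median depends on the scaling and on the arrays used. It was 0.19 with quantile normalisation and -0.29 with median centring, which moved the median of all tested probes from 0.01 to -0.19. With the scaling unchanged it was 0.10 without sham 1, 0.07 without ligated 1 and 0.14 with array weights.

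The immunoproteasome genes, which had negative changes that did not pass the test, varied more among the sham arrays than between the groups. Most genes of the other roles did so too, over smaller ranges. PSMB9 read 2.22, 5.68 and 5.53 on sham and 2.34, 2.78 and 4.49 on ligated arrays. Sham 1 lay beside the 2 lower ligated arrays, and ligated 3 lay nearer to sham 2 and sham 3. The range over the 3 sham arrays was 3.46 in log2, or 11-fold, and the change between the groups was -1.27 ± 1.03 (limma adjusted p = 0.455, 95% interval -3.73 to 1.19). PSMB8 read -1.36, 0.52 and 0.60 on sham and -1.66, -1.19 and -0.43 on ligated arrays. Here sham 1 fell between ligated 1 and ligated 2, the sham range was 3.89-fold, and the change was -1.01 ± 0.59 (adjusted p = 0.318, interval -2.43 to 0.41). PSMB10 read -0.48, 0.87 and 0.75 on sham and -0.57, 0.13 and 0.44 on ligated arrays. Its sham range was 2.55-fold and its change -0.39 ± 0.44 (adjusted p = 0.596, interval -1.44 to 0.67).

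**Figure D2:**
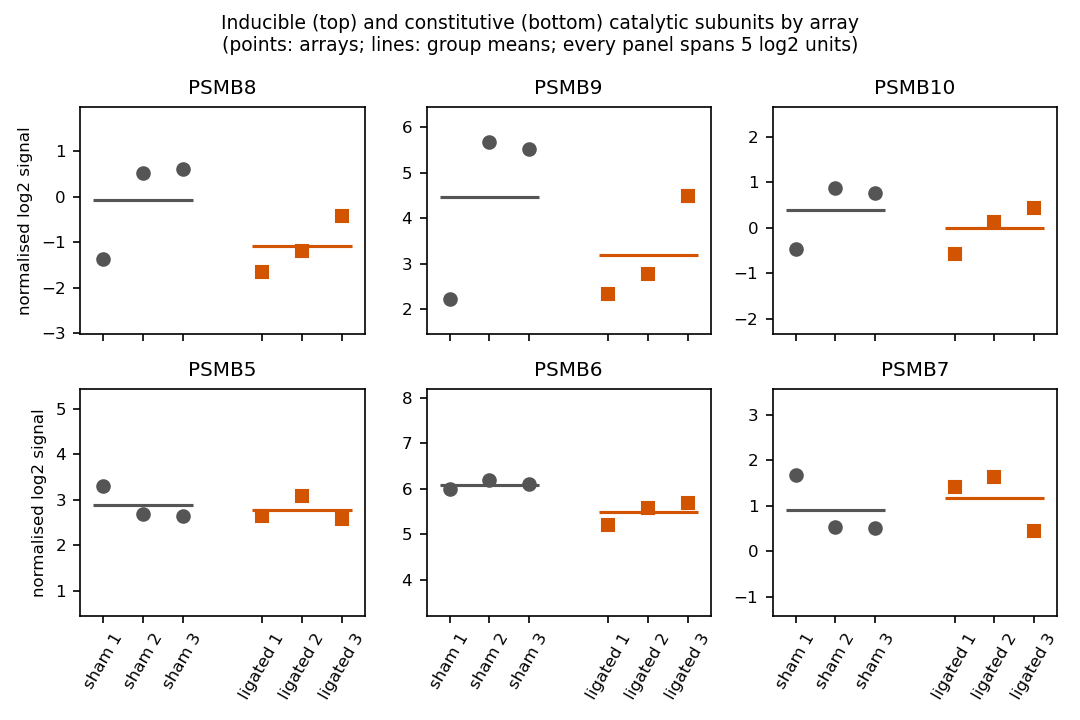
Normalised log2 signal on each array of the inducible catalytic subunits (top) and of the constitutive subunit each replaces (bottom); points are arrays, lines group means, and all panels span the same log2 range. PSMB8, PSMB9 and PSMB10 are low on sham 1, ligated 1 and ligated 2 relative to sham 2 and sham 3. The brighter probe of PSMB6, shown here, is lower on all ligated arrays.

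The difference of sham 1 from the mean of sham 2 and sham 3 had a median size of 1.92 over the 3 immunoproteasome genes, 0.20 over the core, 0.27 over the 19S particle, 0.50 over activators, inhibitors and assembly factors and 0.35 over all named genes. Sham 2 and sham 3 differed by a median of 0.12, 0.08, 0.13, 0.08 and 0.14 in the same sets. Without sham 1 the immunoproteasome changes were -2.40 for PSMB9 (limma adjusted p = 0.0752), -1.65 for PSMB8 (0.0564) and -0.82 for PSMB10 (0.18). Other omissions gave smaller sizes: PSMB9 was -0.67 without sham 2, PSMB8 -0.67 without sham 3 and PSMB10 -0.10 without ligated 1. PSMB8 was -0.23 with normexp background correction (adjusted p = 0.837). In the fit with array weights, which gave sham 1 a weight of 0.393 against 2.96 for sham 2 and 2.85 for sham 3, PSMB8 passed with a change of -1.57 (adjusted p = 0.0471). In that fit PSMB9 had an adjusted p of 0.0687 and PSMB10 of 0.159. In the fit of all 6 arrays the sham range exceeded the size of the change for all 3 genes. It also did so for 10 of 13 core genes, 8 of 12 of the 19S particle and 6 of 11 activators, inhibitors and assembly factors.

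Both genes of the interferon-inducible activator were also low on sham 1 within the sham group and high on ligated 3 within the ligated group. PSME1 read 2.91, 3.50 and 3.58 on sham and 2.20, 2.46 and 3.18 on ligated arrays, and only ligated 3 reached into the sham values. Its change was -0.72 ± 0.32 (limma adjusted p = 0.212, interval -1.49 to 0.06). PSME2 read 4.95, 5.46 and 5.45 on sham and 4.28, 4.70 and 5.07 on ligated arrays, again with ligated 3 above sham 1. The change was -0.60 ± 0.27 (adjusted p = 0.211, interval -1.25 to 0.05). With array weights PSME1 was called (-0.94, adjusted p = 0.0433), and PSME2 was not (-0.75, adjusted p = 0.0512). PSME3, the nuclear activator, read 0.67, 0.48 and 0.43 on sham and 0.94, 0.85 and 0.33 on ligated arrays (0.18 ± 0.23). PSME4, the activator known from spermatogenesis and DNA repair, had a change of -0.01 ± 0.25, so neither had the order of PSME1 and PSME2.

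An array order shared with the immunoproteasome was counted after these values were seen. A gene had it where, by its brightest probe, sham 1 was below both other sham arrays and ligated 3 was above both other ligated arrays. It held for 9 of 39 proteasome genes (PSMA1, PSMB6, PSMB8, PSMB9, PSMB10, PSMD2, PSMD10, PSME1 and PSME2), against 17.4% of named genes. With sham 1 required to be at least 0.5 below the mean of sham 2 and sham 3, and ligated 3 again above both other ligated arrays, it held for PSMB8, PSMB9, PSMB10, PSMD10, PSME1 and PSME2 (6 of 39), against 6.89% of named genes.

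The order was also found in markers of blood and immune cells, which can remain in artery cells taken without a sort. It held for 9 of 11 tested lymphocyte markers, 5 of 6 monocyte and macrophage markers and 3 of 3 erythroid markers, against 17.4% of named genes. It also held for 3 of 9 markers of dividing cells, 2 of 7 of fibroblasts and meninges, 0 of 4 of endothelium and 0 of 8 of smooth muscle. All tested smooth muscle markers but DES ran the opposite way, highest on sham 1 within the sham group and lowest on ligated 3 within the ligated group. CD3E and CD79B were well above background on only 3 arrays, and CD2, CD3G, LCK, PRF1 and ALAS2 on only 4. Such markers may have passed the filter through the arrays where they were high. The counts of lymphocyte and erythroid markers with the order can thus be partly set by the filter. The summed linear signal of the lymphocyte markers was 1.06, 8.78 and 8.87 in the sham group and 1.13, 1.48 and 5.43 in the ligated group, low on the same 3 arrays as PSMB8 and PSMB9. Several of them were dim where low: CD3E, of the T cell receptor complex, read -5.96, -3.26 and -2.78 on sham and -6.14, -5.07 and -3.40 on ligated arrays. PTPRC, which encodes CD45 of all white blood cells, read -4.24, -1.11 and -0.84 on sham and -3.25, -2.28 and -1.04 on ligated arrays. The lymphocyte markers without the order were MS4A1 and CD8B, and the macrophage marker without it was MRC1. MS4A1 was highest on sham 1 within the sham group (-1.67, -2.54 and -4.02), and so was MRC1 (0.38, -0.67 and -0.65). The macrophage sum was 8.97, 19.3 and 16.6 on sham and 8.75, 12.9 and 32.6 on ligated arrays, and the erythroid sum was 189, 389 and 372 on sham and 28.5, 31.4 and 668 on ligated arrays. No lymphocyte, macrophage or erythroid marker was called between the groups (0 of 11, 0 of 6 and 0 of 3 in limma), where 8.89% of named genes were called. The part of these cells in the immunoproteasome values was not tested, and in bulk RNA fewer cells of a type and less RNA per cell cannot be told apart.

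**Figure D3:**
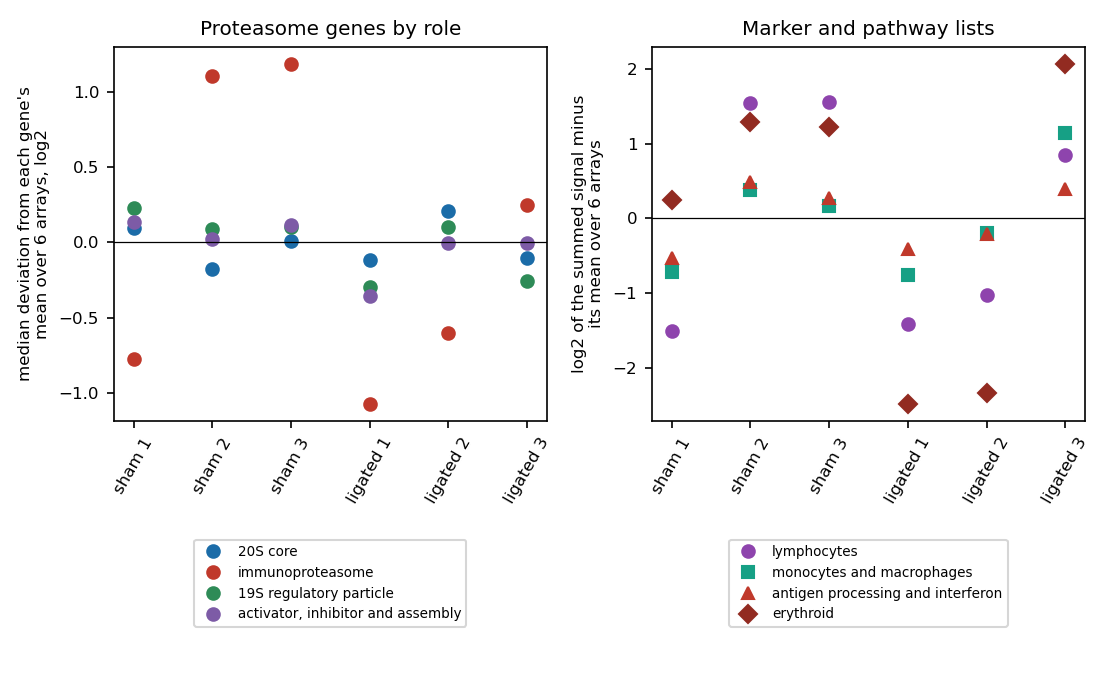
Left, the median over the genes of each role of the deviation from each gene's own mean over the 6 arrays, in log2; right, the log2 of the summed signal of each marker or pathway list minus its mean over the 6 arrays. The immunoproteasome deviations are -0.78, 1.11 and 1.18 in the sham group and -1.07, -0.60 and 0.25 in the ligated group, and the lymphocyte sums are low on the same 3 arrays, while the medians of the other roles lie between -0.35 and 0.23.

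Genes of antigen processing and the interferon response, the programme to which the inducible subunits belong, followed the array order in part. Of 55 listed genes outside the proteasome, 24 were tested, and 12 of these had the order of the immunoproteasome. B2M, the light chain of class I molecules, read 6.88, 8.40 and 8.31 on sham and 7.16, 7.30 and 7.73 on ligated arrays. RLA-DMA, a class II chaperone subunit, read 2.35, 6.86 and 6.75 on sham and 2.41, 3.93 and 5.36 on ligated arrays. TAP1, the peptide transporter subunit encoded beside PSMB9, read -1.74, -0.67 and -0.67 on sham and -2.52, -1.87 and -1.55 on ligated arrays (change -0.96 ± 0.39, limma adjusted p = 0.174). IFNG was not well above background often enough to be tested.

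Between the groups, 1 of the 24 genes rose and 0 fell, with a median change of 0.05, where 8.89% of named genes were called in either direction. The gene that rose was IFNGR2, a subunit of the interferon gamma receptor, at -0.25, 0.10 and 0.09 on sham and 0.94, 0.84 and 0.90 on ligated arrays (0.91 ± 0.19, limma adjusted p = 0.0341). Its call held in 7 of 19 other settings and in 0 of the 6 fits that left out 1 array. ERAP1, which trims peptides for class I molecules, had a change of -1.60 ± 0.43 (adjusted p = 0.0697) and was called as lower in 6 of 19 other settings, among them quantile normalisation, median centring and the replicate block. IFIT3, an interferon-induced gene, read -3.05, -2.27 and -2.41 on sham and -1.86, -0.44 and -1.60 on ligated arrays (1.28 ± 0.42, adjusted p = 0.111), so interferon-response genes did not all lie on the side of PSMB8 and PSMB9.

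In the 19S regulatory particle 11 of 12 changes were negative (8 without ligated 1, 9 with quantile normalisation, 12 with median centring), with a median of -0.28, and none of the 12 was called in limma. The median was -0.37 to -0.17 when 1 array was left out and -0.48 with median centring. PSMD7, a lid subunit that pairs with the deubiquitinase PSMD14, read 5.30, 5.75 and 5.85 on sham and 4.59, 4.88 and 4.87 on ligated arrays. All ligated values lay below all sham values, and the change of -0.85 ± 0.22 was the one nearest to the threshold among the 39 genes (adjusted p = 0.0655, interval -1.39 to -0.32). It passed with median centring (-1.05, adjusted p = 0.0491), with trended robust variances (0.0353), with array weights (0.0168) and without sham 1 (-1.02, adjusted p = 0.0437). PSMD11, a lid subunit that helps hold the particle to the core, read 2.37, 2.32 and 2.54 on sham and 1.38, 2.03 and 1.75 on ligated arrays. The groups did not overlap (-0.69 ± 0.22, adjusted p = 0.109). PSMD12, another lid subunit, read 3.68, 2.87 and 2.89 on sham and 2.45, 2.70 and 2.19 on ligated arrays, with sham 1 the highest (-0.70 ± 0.29, adjusted p = 0.178). Without sham 1 its change was -0.43 (limma unadjusted p = 0.117, adjusted p = 0.281), so PSMD12 was not among the genes with an unadjusted p under 0.05 in that fit.

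PSMD8, also of the lid, was nearly level among sham arrays at 3.77, 3.73 and 3.73 and spread more on ligated arrays at 3.08, 3.46 and 3.63. Every ligated value was lower, and the change was -0.36 ± 0.21 (limma adjusted p = 0.307). PSMD4, a receptor for ubiquitin chains, read 0.63, -0.03 and 0.32 on sham and -0.58, 0.22 and -0.19 on ligated arrays, with overlap (-0.49 ± 0.28). Among the ATPases that unfold the substrate, PSMC3 read 0.38, -0.14 and -0.60 on sham and -0.59, -0.54 and -0.79 on ligated arrays (-0.52 ± 0.28). The groups overlapped through sham 3, and without sham 1 the change was -0.27. PSMC2 had a change of -0.20 ± 0.19 and PSMC6 of -0.02 ± 0.25. The remaining genes of the particle sat close to 0: PSMD13 at -0.17 ± 0.21, the scaffold PSMD2 at -0.04 ± 0.20, PSMD14 at -0.01 ± 0.19 and PSMD3 at 0.03 ± 0.28. The pair PSMD7 and PSMD14 therefore had point changes of -0.85 and -0.01, and that difference was not tested.

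The assembly factors and the inhibitor had changes between -0.41 and 0.01. PSMG1, a chaperone of the alpha ring, read 0.86, 0.67 and 0.73 on sham and 0.08, 0.62 and 0.33 on ligated arrays, without overlap (-0.41 ± 0.21, limma adjusted p = 0.254). This was the brightest of its 5 probes. The groups of its other probes overlapped, with changes of -0.30 to -0.05. PSMG3, a partner chaperone, read 2.52, 2.48 and 2.50 on sham and 1.96, 2.39 and 2.47 on ligated arrays. Its groups were apart by a narrow margin set by ligated 3 (-0.23 ± 0.20, adjusted p = 0.495). POMP, which matures the beta ring and is needed for new cores of either kind, read 5.30, 5.10 and 5.18 on sham and 4.72, 5.24 and 4.93 on ligated arrays (-0.23 ± 0.20, adjusted p = 0.501). The chaperones of the 19S base had changes of -0.08 (PSMD5), -0.07 (PSMD9) and 0.01 (PSMD10), and the inhibitor PSMF1 of -0.15 ± 0.27. Without sham 1 the sign changed for PSMD9 (0.19), PSMD10 (-0.19) and PSMF1 (0.10). The median of the 11 activators, inhibitors and assembly factors was -0.15, and -0.35 with median centring.

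Of the tested genes, 20 had 1 tested probe, among them the 3 immunoproteasome genes, PSME1, PSMD8 and PSMC3, and so no second sequence to compare. The other 19 had several, of which 12 had probes of 1 sign and 7 of both signs (PSMA2, PSMA6, PSMD2, PSMD5, PSMD14, PSME4 and POMP). Many probes of a gene overlapped: all 10 pairs among the 5 probes of PSMB4, PSMD2, PSMD13, PSME2 and PSMG1 shared a run of 30 bases or more, so their agreement within a gene is not independent. PSMD7 had 5 overlapping probes with changes of -0.87 to -0.79 (limma adjusted p 0.059 to 0.0913). Its sixth probe, which shared no such run with them and was placed elsewhere in the gene at chr5:25361445-25363709, read 3.18, 2.11 and 2.29 on sham and 2.22, 2.81 and 1.91 on ligated arrays. That probe had a change of -0.21 ± 0.37 with overlapping groups (adjusted p = 0.731). Groups of PSMD7 without overlap were thus seen for 1 stretch of sequence only. The 95% interval of the sixth probe, -1.09 to 0.66, included the changes of the other 5, and the difference between probes was not tested. The 2 probes of PSMB6 shared no long run and had changes of -0.60 and -0.58. The dimmer of them read 3.69, 3.00 and 3.08 on sham and 2.60, 3.03 and 2.40 on ligated arrays. Its groups overlapped (limma adjusted p = 0.231), and it did not have the array order of the immunoproteasome. The 4 probes of PSMD12 ranged from -0.79 to -0.58 and the 3 of PSMD11 from -0.69 to -0.30. Groups overlapped for the probes of PSMD12 at -0.62 and -0.58 and for the probe of PSMD11 at -0.30. With all probes of a gene averaged, 5 genes had groups that did not overlap, in place of 8.

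**Figure D4:**
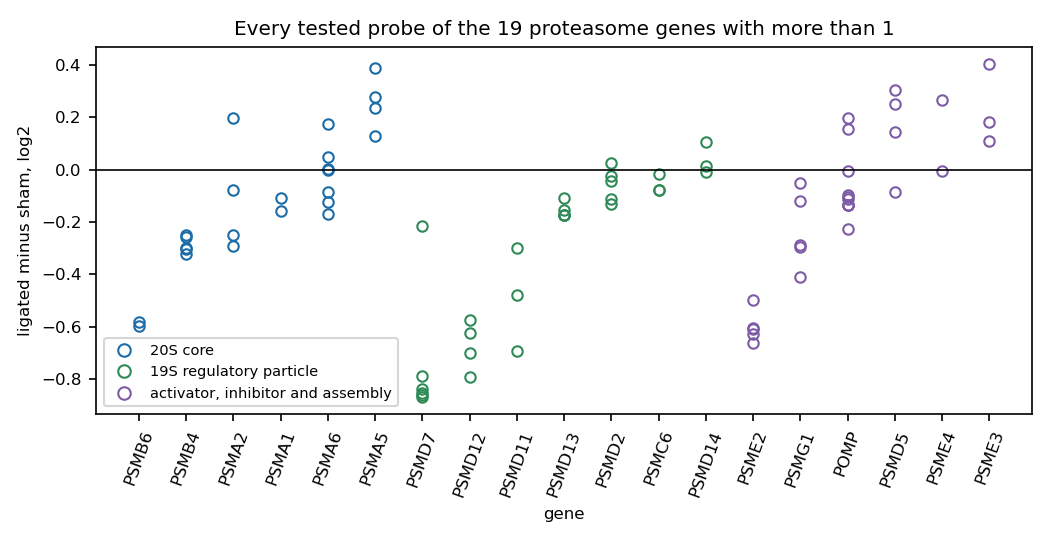
Change of every tested probe (y axis, ligated minus sham in log2) of the 19 proteasome genes with more than 1 tested probe, coloured by role; each circle is a probe. The 5 overlapping probes of PSMD7 lie near -0.85 and the sixth at -0.21, and the probes of 7 genes lie on both sides of 0.

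Genes that feed or control the proteasome were also counted. Of 36 listed genes of the ubiquitin system and of the NRF1 pathway outside the members, 20 were tested, 1 fell, 0 rose and the median change was -0.07, where 8.89% of named genes were called in either direction. The gene that fell was NGLY1, the glycanase that processes NRF1 on its way to the nucleus, at -1.31, -0.99 and -0.98 on sham and -2.07, -1.90 and -1.83 on ligated arrays (-0.84 ± 0.19, limma adjusted p = 0.0457). Its call held in 7 of 19 other settings, among them 1 of the 6 fits that left out 1 array, the one without sham 1. AKIRIN2, which carries proteasomes into the nucleus, had a change of -0.63 ± 0.19 (adjusted p = 0.0903). NFE2L1 itself had no probe with its symbol here. Over the same arrays 9 of 9 tested markers of dividing cells rose, with a median change of 3.35.

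5 further genes that the table of rabbit symbols names as proteasome genes had descriptions without the word of the rule and were not members. PSMC5, an ATPase of the 19S particle, read 2.78, 3.05 and 2.92 on sham and 1.89, 2.01 and 2.41 on ligated arrays, without overlap (-0.81 ± 0.21, limma adjusted p = 0.0658). PSMG2, the partner of PSMG1, read 1.04, 1.28 and 1.33 on sham and 0.11, 0.53 and 0.65 on ligated arrays, also without overlap (-0.79 ± 0.22, adjusted p = 0.0749). PSMC1 had a change of -0.19 ± 0.20, PSMG4 of 0.14 ± 0.25 and PAAF1 of -0.34 ± 0.17. With these genes counted as members, an alternative chosen after seeing the data, limma again called 0, with 6 at an unadjusted p under 0.05.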

How the data were processed

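Total RNA of 6 samples was read on 1-colour Cy3 arrays, 1 per sample. Per the file headers, scans were read with Agilent Feature Extraction (version 10.7 in the submitters' processing notes), and the deposited processed signal is an intensity, background-subtracted and detrended, and not yet scaled from array to array; the spot flags are 0 or 1. The deposited raw signal and background are intensity values too, and the deposited value table holds log2 values with equal quantiles, by a step not given in the sources used here. Outlier spots were left out (2 to 19 per array), spots of a probe averaged, and the 75th percentile of each array subtracted from the log2 signal. Probes well above background on at least 3 of 6 arrays entered lmFit and eBayes of limma 3.58.1 (R 4.3.3, 4 residual degrees of freedom, two-sided). Adjusted p is Benjamini-Hochberg over these 27410 probes, with 0.05 as the threshold. The script was tested on simulated data.

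A gene stands as its brightest tested probe. Symbols came from the files through a RefSeq table built on assembly mOryCun1.1, from which no position was taken (22548 probes with 1 symbol, 67 with several, 20988 with none). The proteasome genes, the pathway and marker lists and the genes named were chosen with earlier results of these data known. Genes given array by array were the inducible subunits and their counterparts, those with the highest and lowest changes of each role, the activators, POMP, and the pathway genes with the smallest p; other values were picked after they were seen. Alternatives covered background correction, scaling, the filter, the deposited table, variance models, array weights, a replicate block, scan day, averaging sham 2 with sham 3, and leaving out each array. The number of arrays limits the precision.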

Additional observations from a re-analysis of the deposited data

How the results depend on the processing

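Probes called over the whole array numbered 2290, with 68.3% higher in ligated, and 2201 with 52.2% higher under median centring, 2378 with 56.3% under normexp without high-background spots, 5488 with 56.3% under array weights, 0 under normexp background correction (615 at an unadjusted p under 0.05), 1524 with 78.6% higher without the filter on dim probes, 552 with scan day as a block, 595 with sham 2 and sham 3 averaged, and 552 to 2269 when 1 array was left out. The median change over probes was 0.21 under normexp and 0.17 without the filter. The replicate numbers were not taken to pair the arrays, since deviations of same-numbered arrays correlated at 0.43, -0.57 and 0.58 and not every array correlated best with its own number; with the replicate block 1295 probes, 0 proteasome genes, 0 ubiquitin genes and 1 antigen gene were called.

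Proteasome genes called numbered 0, but 1 under median centring, 1 with trended robust variances, 4 with array weights and 0 to 1 when 1 array was left out. In the ubiquitin list, the 1 called became 0 under both normexp settings, without the filter, with scan day as a block, with sham 2 and sham 3 averaged and with all probes of a gene averaged, 4 with array weights, and 0 to 1 when 1 array was left out. In the antigen list, the count of 1 called became 0 under normexp, without the filter, with scan day as a block and with sham 2 and sham 3 averaged, 2 under quantile normalisation, with the deposited table and with all probes averaged, 4 with array weights, and 0 to 1 when 1 array was left out. The 1 gene was not always IFNGR2. It was ERAP1, as lower, under median centring and with the replicate block, and OASL, as higher, without ligated 1. Proteasome genes without overlap numbered 8, but 1 under normexp, 5 with all probes averaged and 9 to 16 when 1 array was left out. The core median of -0.09 became 0.19 under quantile normalisation and with the deposited table, -0.29 under median centring, 0.14 with array weights and -0.15 to 0.10 when 1 array was left out. Median centring gave -0.48 for the 19S particle and -0.35 for activators, inhibitors and assembly factors.

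Of 741 gene values over 39 genes and 19 settings, 669 kept direction and side of the threshold, 7 passed only in the other setting and 65 changed sign, none of them called. Quantile normalisation gave PSMD2 0.15, PSMC6 0.11, PSMD14 0.0203, PSMD3 -0.0696, PSMA6 0.19 and POMP 0.0355, and the deposited table gave PSMD2 0.15, PSMC6 0.10, PSMD14 0.0201, PSMD3 -0.0700, PSMA6 0.19 and POMP 0.0361. Array weights gave PSMC6 0.17, PSMD14 0.0143, PSMB5 0.13, PSMB2 0.14, PSMF1 0.0568, PSMD5 0.24, PSMD9 0.15 and PSMD10 -0.19. Median centring gave PSMD3 -0.17, PSMB3 -0.0929, PSMD10 -0.19 and PSME3 -0.0172. Normexp gave PSMF1 0.24, PSMD5 0.12, PSMD9 0.0568, PSME4 0.0885 and PSMD10 -0.00426, and without high-background spots PSMD14 0.0269, PSMD5 0.0184, PSMD9 0.0416 and PSME4 0.0102. Scan day as a block gave PSMD14 0.0321, PSMD3 -0.11 and PSME4 0.0711, the mean of all probes PSMD14 0.0378, PSMD5 0.15 and PSME4 0.13, and averaging sham 2 and sham 3 gave PSMD3 -0.0893 and PSME4 0.0372. Leaving out 1 array gave PSMD2 -0.14 to 0.10, PSMC6 -0.21 to 0.15, PSMD14 -0.0702 to 0.11, PSMD3 -0.11 to 0.28, PSMA1 -0.31 to 0.0704, PSMB5 -0.27 to 0.0944, PSMB2 -0.26 to 0.10, PSMB3 -0.0440 to 0.19, PSMF1 -0.33 to 0.0967, PSMD5 -0.35 to 0.20, PSMD9 -0.25 to 0.19, PSME4 -0.21 to 0.18 and PSMD10 -0.19 to 0.15. The cause of these moves was not tested, except that sham 3 was alone on its scan day, so that block equals leaving it out.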
